A study of Mus musculus with 9 samples.

Results

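The genes described here encode the proteins of the mitochondrial ribosome, taken as every protein-coding gene of the deposited expression table whose symbol begins with Mrpl or Mrps followed by a digit. The rule found 78 genes of the 54532 in the table, of which 22046 are protein-coding. By the ribosomal protein nomenclature, 51 belong to the large subunit and 26 to the small subunit. Mrps30 and Mrps18a carry small-subunit symbols but sit in the large subunit and were counted there. Mrps36 belongs to neither, since its product is an adaptor of the oxoglutarate dehydrogenase complex of the citric acid cycle. A further 5 pseudogene symbols of the same form were left out by the biotype rule.

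Expression was measured by RNA sequencing in 9 libraries of primary hepatocytes of C57BL/6 mice, 3 in each of 3 groups. WT DMSO and WT Tu cells came from COX-2 fl/fl littermates without Alb-Cre, and CKO Tu cells came from COX-2 fl/fl Alb-Cre+ mice, in which the albumin promoter drives Cre and so deletes COX-2 in hepatocytes. After 2 h in medium with 1% FBS, the WT DMSO cells received the vehicle DMSO and both Tu groups received tunicamycin at 6 μmol/L, each for 24 h. Tunicamycin blocks N-linked glycosylation and causes stress of the endoplasmic reticulum (ER). A knockout group without tunicamycin was not analysed here, so CKO Tu against WT Tu compares genotypes under the drug, and CKO Tu against WT DMSO joins drug and genotype. The ages of the mice are not given in the sources used here, and the labels do not say whether replicates came from separate animals, so the tests measure variation among libraries that may be technical.

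The mitochondrial ribosome reads the mRNAs of the mitochondrial genome, which encode core subunits of the respiratory chain and of ATP synthase. Its 2 ribosomal RNAs are transcribed inside the organelle, while its proteins are all encoded in the nucleus, made by cytosolic ribosomes and imported. Many descend from bacterial ribosomal proteins, and others were added during the evolution of mitochondria. The small subunit binds and decodes the mRNA, and the large subunit forms the peptide bond and is attached to the inner membrane. Hepatocytes are rich in mitochondria, which carry out fatty acid oxidation and parts of the urea cycle.

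Each library held between 14897358 and 16001484 assigned fragments, of which between 41375 and 53415 fell on the 78 genes. Hspa5, the ER chaperone BiP induced by tunicamycin, was at 561 to 590 FPKM (fragments normalised by the authors for the length of the gene and the size of the library) in WT DMSO, 4968 to 5744 for WT Tu and 4753 to 5036 for CKO Tu. Ptgs2, the gene of COX-2, had 0 to 13 fragments in WT libraries and 1 to 2 in those of CKO Tu, too few to check the deletion closely. The labels call both genotypes male, yet Xist, expressed from the inactive X of female cells, had 20659 to 33657 fragments in the 6 WT libraries against 0 to 3 in the CKO Tu libraries. Summed over Uty, Kdm5d, Ddx3y and Eif2s3y, all on the Y chromosome, there were 0 fragments in the WT libraries and 3486 to 3633 in the others. In every CKO Tu comparison below, genotype and this sex-linked difference cannot be told apart, whereas WT Tu and WT DMSO share the Xist-high pattern. Summed over 10 hepatocyte markers such as Alb and Apoa1, levels were 14040 to 17942 FPKM, mostly from Alb, with none at 0. Markers of each of 5 other cell types summed to between 1.44 and 115 FPKM. WT Tu replicate 1 had the largest share of fragments on mitochondrial genes, 6.87% against 4.39% to 5.90% in the 8 other libraries, and results that change without it are given so.

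Of the 78 genes, 77 reached an FPKM of 1 in 3 or more libraries and were tested among 11858 genes. The exception was Mrpl53 (chr6:83109040-83109939, mm10), a large-subunit protein specific to mitochondria, which had 0 fragments in all 9 libraries. In the GENCODE M21 annotation, 88% of its exon bases also belong to a read-through gene on the same strand. Exons of other genes overlapped those of 33 members, and for 10 members at least 20% of exon bases were shared with 1 or more of them. For these 10 members, Mrpl19, Mrpl24, Mrpl43, Mrpl47, Mrpl53, Mrps18b, Mrps18c, Mrps25, Mrps27 and Mrps34, the level is uncertain, since the strand setting of the counting was not given in the sources used here.

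Levels per gene length varied widely among proteins most of which are present in equal numbers in the assembled ribosome. For 73 members this length equalled that of all annotated exons merged, which can exceed the length of the mRNA. In WT DMSO replicate 1, Mrpl33 (7326 bases) had 809 fragments and 6.93 FPKM, against 501 fragments and 51.8 FPKM for Mrpl34 (607 bases). The ranking of members and the levels of the subunits therefore depend on the annotated length too, and its part was not tested. The median over the 77 genes of the mean FPKM in 9 libraries was 14.01, and Mrps18b, a mitochondria-specific protein of the small subunit, was highest at 62.0. Mrpl38, part of the central protuberance of the large subunit, followed at 57.9 and Mrpl52, a mitochondria-specific protein of the large subunit, at 49.6. At the other end, Mrps25 was at 1.57 and Mrpl48 at 2.30 FPKM, while 4 genes lay at 40 or more, 25 between 20 and 40, 22 between 10 and 20, 21 between 5 and 10, and 5 between 1 and 5. Large-subunit genes had a median of 17.3 FPKM and small-subunit genes 10.8. The 10 highest genes held 30.6% of the summed level. The coefficient of variation within a group had a median of 5.72% for WT DMSO, 10.3% for WT Tu and 5.23% for CKO Tu. In WT Tu replicate 1, 46 of the 77 genes were at their lowest and 18 at their highest within the group.

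The summed level of all 78 genes was 1524, 1486 and 1526 FPKM for WT DMSO, 1329, 1425 and 1450 for WT Tu, and 1238, 1248 and 1247 for CKO Tu. The 3 groups did not overlap, and the CKO Tu mean was 82.3% of the WT DMSO mean and 88.8% of the WT Tu mean. As a share of all assigned fragments, the genes took 0.343% to 0.351% for WT DMSO, 0.287% to 0.309% for WT Tu and 0.270% to 0.274% for CKO Tu. The large subunit summed to 1085 ± 14.2 FPKM for WT DMSO, 970 ± 44.3 for WT Tu and 869 ± 3.55 for CKO Tu (SD, n = 3). The small subunit summed to 422 ± 7.56, 428 ± 19.7 and 369 ± 2.33 FPKM (SD, n = 3), so the WT Tu mean was not below that of WT DMSO. The ratio of the large to the small sum was 2.55 to 2.58 for WT DMSO, 2.26 to 2.28 for WT Tu and 2.34 to 2.37 for CKO Tu. Without the 5 highest genes of each subunit the ratios were 3.49 to 3.56, 3.32 to 3.53 and 3.41 to 3.48. WT Tu then overlapped both other groups, while the WT DMSO libraries still lay above those of CKO Tu, by a narrow gap. The genes left out included Mrps18b in the small subunit.

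**Figure D1:**
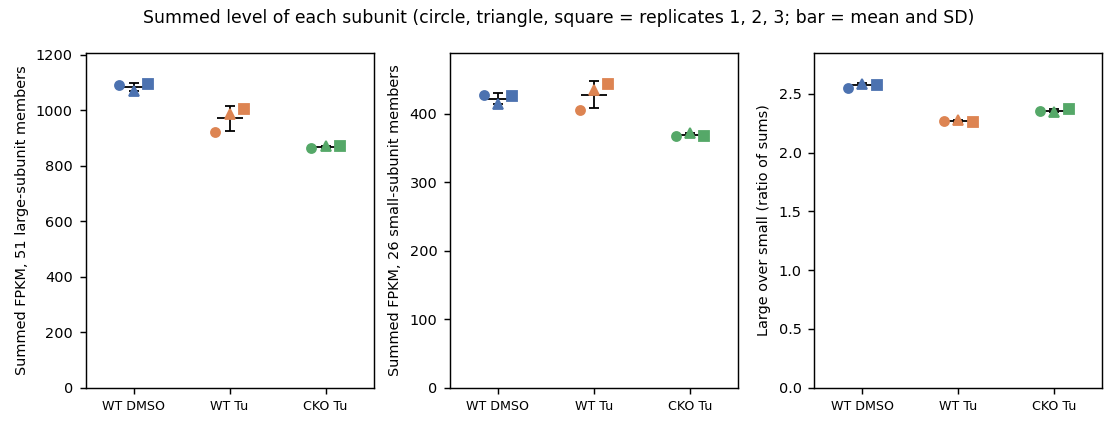
Summed FPKM of the 51 large-subunit genes (left) and the 26 small-subunit genes (middle) and the ratio of the sums (right), 1 symbol per library, with the mean and SD of 3 libraries per group as bars. The large subunit falls from 1085 ± 14.2 for WT DMSO to 869 ± 3.55 for CKO Tu, while the small-subunit sums of WT DMSO and WT Tu overlap and those of CKO Tu lie below both.

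How ER stress alters these genes in wild-type cells is the question of WT Tu against WT DMSO. In WT Tu, 14 of the 77 genes fell and 3 rose, while 60 did not pass the threshold of an adjusted p below 0.05 (limma with Benjamini-Hochberg adjustment over all genes tested). In all genes, 33.6% were called, 15.9% lower and 17.7% higher, against 18.2% lower and 3.9% higher among the members. Their median log2 change was -0.06, beside 0.00 over all genes, and 48 of 77 changes were below 0. The changes were small, from -0.52 to 0.52, and the 14 genes that fell retained 68.7% to 84.2% of the WT DMSO level. With each library scaled to its total fragments, 27 genes fell and 1 rose, at a median change of -0.11 over all genes and -0.18 over the members. The count of 3 rising genes was 1 without WT DMSO replicate 1 or 2, WT Tu replicate 3 or CKO Tu replicate 2, and 5 without WT Tu replicate 1.

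Among proteins shared with bacterial ribosomes, Mrpl19, a large-subunit protein at the interface between the subunits, fell (chr6:81957851-81965958, mm10). Its level was 11.5, 11.3 and 11.1 FPKM for WT DMSO and 7.23, 8.27 and 7.73 for WT Tu. The groups did not overlap, and the log2 change was -0.49 ± 0.06 (SE; limma adjusted p = 0.00042). Of its exon bases, 36% are shared with Gcfc2 on the other strand. Mrpl34, a small protein of the large subunit (chr8:71464959-71465747), had 51.8, 48.1 and 52.5 FPKM for WT DMSO and 31.4, 34.4 and 40.2 for WT Tu. All 3 WT Tu libraries were below all WT DMSO libraries, with a log2 change of -0.52 ± 0.09 (SE; limma adjusted p = 0.0021). Mrpl14, a protein at the subunit interface, showed the numerically largest decrease at -0.52 ± 0.15 (SE; limma adjusted p = 0.027), but its spread was wide and its call was lost when any 1 of the 3 WT DMSO libraries was left out. WT Tu replicate 1 was at 22.9 FPKM against 35.3 and 36.5 in the other 2 libraries and 43.6 to 46.6 for WT DMSO. Mrpl33 and Mrpl15, both of the large subunit, fell by 0.44 ± 0.10 and 0.33 ± 0.06 on the log2 scale (SE; limma adjusted p = 0.01 and 0.0027).

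The stalk of the large subunit, built from several copies of Mrpl12, recruits the translation factors. Mrpl12 (chr11:120484613-120489065) fell from 39.8, 43.6 and 47.4 FPKM for WT DMSO to 26.9, 34.5 and 33.7 for WT Tu. The groups did not overlap, at -0.45 ± 0.11 (SE; limma adjusted p = 0.013), and the call was lost without WT DMSO replicate 3. The stalk base proteins Mrpl10 and Mrpl11 changed by -0.06 ± 0.07 and -0.19 ± 0.07 (SE) and did not pass (limma adjusted p = 0.51 and 0.086).

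Of the mitochondria-specific large-subunit proteins, 4 of 20 fell (20%), beside 7 of 30 shared with bacterial ribosomes (23.3%) and 15.9% of all genes. Mrpl38 (chr11:116131817-116138868) had 70.5, 72.1 and 74.0 FPKM for WT DMSO and 47.2, 57.8 and 59.5 for WT Tu, without overlap, a log2 change of -0.40 ± 0.08 (SE; limma adjusted p = 0.0064). Mrpl52 (chr14:54426909-54429756) had 61.5, 58.1 and 63.4 FPKM for WT DMSO and 49.9, 51.2 and 48.1 for WT Tu. This was a smaller decrease of -0.29 ± 0.05 (SE; limma adjusted p = 0.0027), and its call was lost when a trend with GC content was removed from each library. Mrpl41, which is also mitochondria-specific, had 20.7, 21.3 and 21.5 against 14.6, 18.6 and 18.5 FPKM, at -0.29 ± 0.10 (SE; limma adjusted p = 0.051), just outside the threshold.

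The 100 bases before the RefSeq start site (GRCm38.p6, the patch release of mm10) are shown for Mrpl52 and Mrpl34, which fell in WT Tu. Capitals mark the letters CCGGAAG on either strand, which factors of the ETS family such as GABP can bind, and AAGATGG, which YY1 can bind. No other member that fell was found with CCGGAAG in the 250 bases before the start, while Mrps27, which rose, had it. The window of Mrpl52 is chr14:54426809-54426908 and that of Mrpl34 chr8:71464826-71464925, both on the plus strand.
Mrpl52: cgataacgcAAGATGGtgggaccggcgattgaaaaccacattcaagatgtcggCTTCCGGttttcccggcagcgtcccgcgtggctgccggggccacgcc
Mrpl34: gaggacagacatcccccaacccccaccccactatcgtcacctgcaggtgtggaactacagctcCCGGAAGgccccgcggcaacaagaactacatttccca
In Mrpl52 the YY1 letters began 91 bases and the ETS letters 47 bases before the start, the latter in reverse, and in Mrpl34 the ETS letters began 37 bases before it.

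The 3 genes that rose in WT Tu all belong to the mitochondria-specific part of the small subunit, in which 3 of 10 rose and 0 fell. Over all genes 17.7% rose and 15.9% fell. Mrps27, a pentatricopeptide repeat protein that binds RNA (chr13:99344786-99415562), had 16.6, 15.1 and 15.9 FPKM for WT DMSO and 22.4, 23.6 and 23.4 for WT Tu. All 3 WT Tu libraries were above WT DMSO, a log2 change of 0.52 ± 0.07 (SE; limma adjusted p = 0.00055). A non-coding transcript on the other strand shares 24.2% of its exon bases. Mrps18b (chr17:35910379-35916389) had 62.2, 61.0 and 58.9 FPKM for WT DMSO and 86.8, 67.0 and 71.6 for WT Tu. The groups did not overlap, but WT Tu replicate 1 stood above the other 2 libraries, with a log2 change of 0.29 ± 0.09 (SE; limma adjusted p = 0.038). Mrps31 (chr8:22411361-22429665) had 10.48, 10.51 and 11.95 against 13.4, 12.4 and 12.8 FPKM, at 0.21 ± 0.07 (SE; limma adjusted p = 0.038). Of 20 alternative settings, Mrps18b kept its call in 9 and Mrps31 in 6, and both lost it when libraries were scaled to total fragments or by the upper quartile. Without WT Tu replicate 1, Mrps18b kept its call and Mrps31 did not. Both calls were lost without WT DMSO replicate 1 or 2, WT Tu replicate 3 or CKO Tu replicate 2, that of Mrps18b also without WT DMSO replicate 3, and that of Mrps31 also without CKO Tu replicate 3. The 16 small-subunit proteins shared with bacterial ribosomes included 0 that rose and 3 that fell, Mrps2, Mrps11 and Mrps24, and without WT Tu replicate 1 these counts were 1 and 2. Mrps11, a protein of the platform of the small subunit, had 9.50, 7.65 and 8.78 FPKM for WT DMSO and 6.08, 6.03 and 7.67 for WT Tu (log2 change -0.35 ± 0.10, SE; limma adjusted p = 0.027). Its groups overlapped, and leaving out WT DMSO replicate 1 or 3, or WT Tu replicate 1 or 2, ended its call.

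Markers of some other cell types differed in level between the WT groups. Summed over 9 liver endothelial markers, of which 5 passed the filter, levels were 12 to 12.8 FPKM for WT DMSO and 4.92 to 6.42 for WT Tu. Over 10 lymphocyte and neutrophil markers, of which 1 passed, they were 1.44 to 1.78 and 4.87 to 6.51 FPKM. Kupffer cell markers, of which 2 of 10 passed and Vsig4 was at 0 throughout, summed to 75.3 to 92.9 and 96.9 to 115 FPKM. The 2 that passed went opposite ways in WT Tu (limma). Cd68 was higher and Lyz2 lower, calls kept in 13 and 19 of 20 alternatives. Stellate cell markers (2 of 9 passed) summed to 5.52 to 6.76 FPKM for WT DMSO and 5.12 to 5.91 for WT Tu. Cholangiocyte markers (3 of 7 passed) summed to 24.5 to 27.6 and 23.8 to 25.4 FPKM, and the WT groups overlapped in both sums. Of 10 hepatocyte markers, 4 were lower and 0 higher in WT Tu (limma), at overlapping sums of 16219 to 17942 and 15999 to 17321 FPKM. The part of these cell types in the results was not tested. In such bulk samples, fewer cells of a type and less RNA per cell cannot be told apart.

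**Figure D2:**
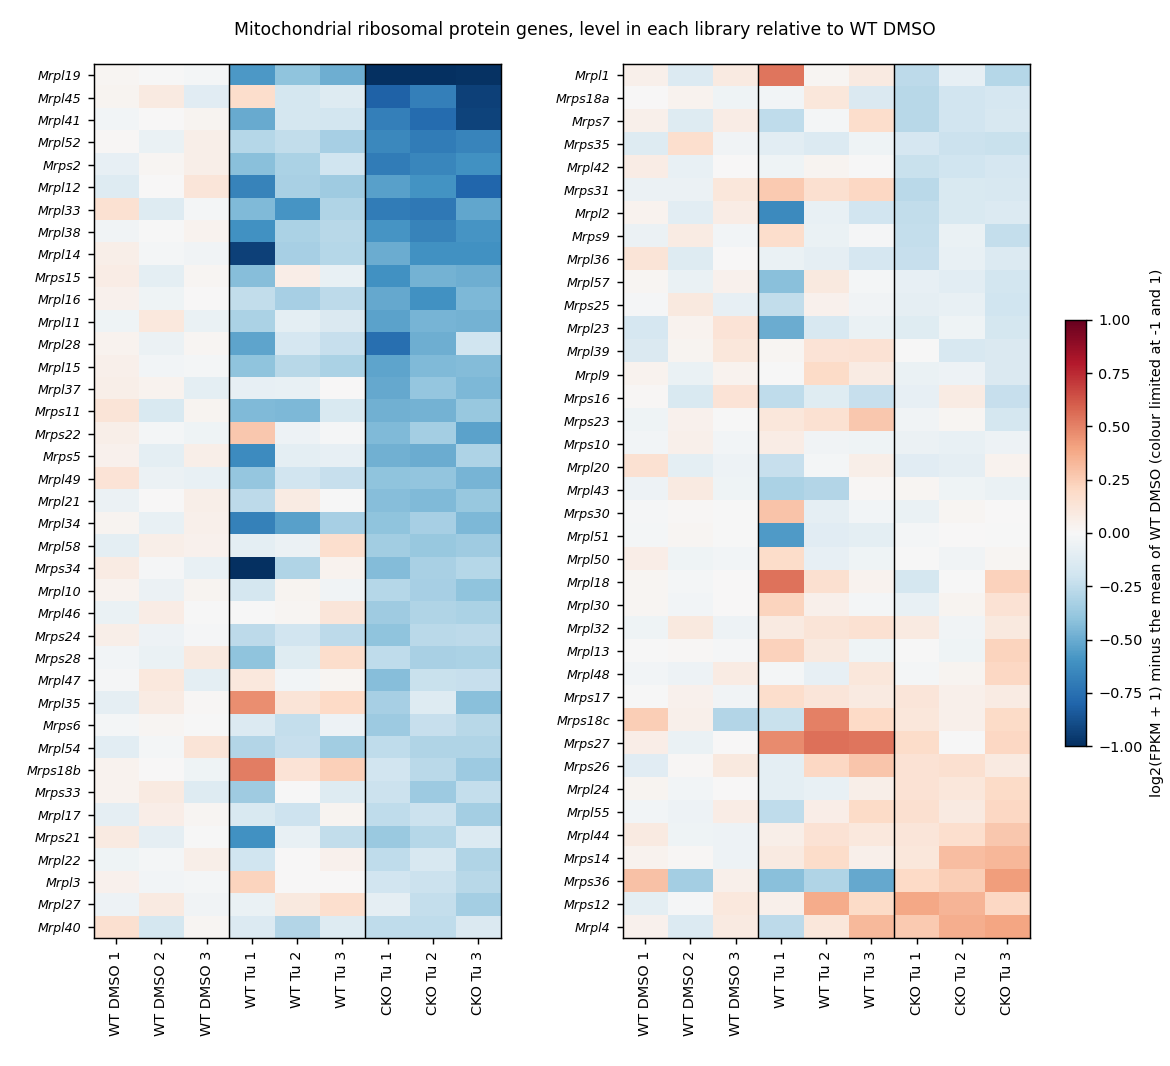
Level of the 77 tested genes (rows) in the 9 libraries (columns), as log2(FPKM + 1) minus the mean of the 3 WT DMSO libraries, with blue for lower and red for higher and colour limited at -1 and 1. Rows are ordered by the change in CKO Tu against WT DMSO, from Mrpl19 at -1.03 to Mrpl4 at 0.34, and WT Tu replicate 1 differs from the other WT Tu libraries in many rows.

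Cells of COX-2-deleted and wild-type mice, both given tunicamycin, were compared next. In CKO Tu, 24 of the 77 genes were lower and 2 were higher, and 51 did not pass (limma). Over all genes 38.3% were called, 19.6% lower and 18.7% higher, against 31.2% lower and 2.6% higher among the members. The median log2 change was -0.15 beside 0.00 over all genes, and 58 of 77 changes were below 0. Genes that were lower stood at 57.3% to 86.2% of the WT Tu level. Without WT Tu replicate 1, 35 genes were lower, including all of the 24, and 2 were higher. The count of higher genes was 1 without WT Tu replicate 2 or CKO Tu replicate 1 or 3, and 5 without WT Tu replicate 3. The sex-linked difference described above coincides with this comparison and cannot be told apart from genotype. Markers of cholangiocytes summed to 23.8 to 25.4 FPKM for WT Tu and 35.6 to 39.5 for CKO Tu (3 of 7 passed the filter). Of 10 hepatocyte markers, 7 were higher and 2 lower (limma), at sums of 15999 to 17321 and 14040 to 14962 FPKM. Alb, which was lower, made up most of these sums, with means of 14280 FPKM for WT Tu and 10280 for CKO Tu. Endothelial markers summed to 4.92 to 6.42 and 4.23 to 4.59 FPKM, stellate cell markers (2 of 9 passed) to 5.12 to 5.91 and 6.57 to 7.41, and lymphocyte and neutrophil markers to 4.87 to 6.51 and 3.02 to 4.58, none of which overlapped. The part of these cell types in the results was not tested.

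The largest decrease was in Mrpl45 (chr11:97315716-97329920), the protein that anchors the large subunit to the inner membrane beside the exit of the polypeptide tunnel. Its level was 35.9, 27.9 and 28.9 FPKM for WT Tu and 17.7, 19.3 and 16.1 for CKO Tu. The groups were far apart, with a log2 change of -0.76 ± 0.11 (SE; limma adjusted p = 0.00068). WT DMSO libraries were at 32.2, 33.7 and 29.2 FPKM, in the range of WT Tu (log2 change in WT Tu -0.04 ± 0.11, SE; limma adjusted p = 0.79). Mrpl41 (chr2:24974117-24975098) stood at 12.8, 11.99 and 10.6 FPKM for CKO Tu, below all WT Tu libraries, at -0.51 ± 0.10 (SE; limma adjusted p = 0.0039). Mrpl19 was at 5.07, 4.75 and 5.18 FPKM for CKO Tu, again without overlap with WT Tu, at -0.54 ± 0.06 (SE; limma adjusted p = 0.00025). Mrpl35, a large-subunit protein shared with bacteria, had 14.9, 11.6 and 12.2 FPKM for WT Tu and 8.19, 9.57 and 7.63 for CKO Tu, at -0.55 ± 0.11 (SE; limma adjusted p = 0.0038). Mrpl1, which belongs to the flexible stalk on the side where spent tRNA leaves, had 14.7, 10.01 and 10.5 against 8.04, 9.22 and 7.88 FPKM. Its change of -0.43 ± 0.13 (SE; limma adjusted p = 0.034) lost its call without CKO Tu replicate 1 or 3.

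The stalk and its base carry Mrpl10, Mrpl11 and Mrpl12, of which the first 2 were lower. Mrpl10 and Mrpl11 differed by -0.28 ± 0.07 and -0.31 ± 0.07 (SE; limma adjusted p = 0.01 and 0.011). Mrpl58, a release factor homologue built into the large subunit that can free peptides from stalled ribosomes, was at 13.5, 13.9 and 16.5 FPKM for WT Tu and 11.3, 11.0 and 11.1 for CKO Tu. Its difference was -0.36 ± 0.08 (SE; limma adjusted p = 0.0065). For Mrpl12 the difference of -0.19 ± 0.11 did not pass (SE; limma adjusted p = 0.20).

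In the small subunit 7 of 26 genes were lower (26.9%, beside 19.6% of all genes) and 0 were higher. The 3 genes that had risen in WT Tu were among them, a comparison that uses the same WT Tu libraries as the first. Mrps18b was at 53.1, 50.1 and 46.9 FPKM for CKO Tu, below both WT groups, with a difference from WT Tu of -0.57 ± 0.09 (SE; limma adjusted p = 0.0016). Mrps31 was at 8.94, 9.74 and 9.69 FPKM (-0.41 ± 0.07, SE; limma adjusted p = 0.0017). Mrps27, at 18.1, 15.8 and 18.4 FPKM, was below all WT Tu libraries (-0.39 ± 0.07, SE; limma adjusted p = 0.0023) and overlapped WT DMSO. Mrps22, another mitochondria-specific protein, was at 13.96, 11.0 and 11.3 FPKM for WT Tu and 8.14, 8.79 and 7.55 for CKO Tu (-0.51 ± 0.09, SE; limma adjusted p = 0.0029).

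The 2 genes that were higher in CKO Tu were Mrps36 and Mrpl24. Mrps36 (chr13:100735955-100744659), the dehydrogenase adaptor that is no ribosomal protein, had 3.64, 4.04 and 3.35 FPKM for WT Tu and 6.11, 6.38 and 7.31 for CKO Tu. It was the largest increase among the members, 0.70 ± 0.15 (SE; limma adjusted p = 0.0059), without overlap. Its WT DMSO libraries were scattered at 6.60, 3.91 and 5.42 FPKM, and neither WT Tu (limma adjusted p = 0.06) nor CKO Tu (limma adjusted p = 0.14) differed from them past the threshold. Mrpl24, a large-subunit protein shared with bacteria, had 19.5, 19.9 and 21.9 against 23.4, 22.8 and 24.2 FPKM. Its increase of 0.19 ± 0.06 (SE; limma adjusted p = 0.026) lost its call without WT Tu replicate 2 and without CKO Tu replicate 1 or 3.

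**Figure D3:**
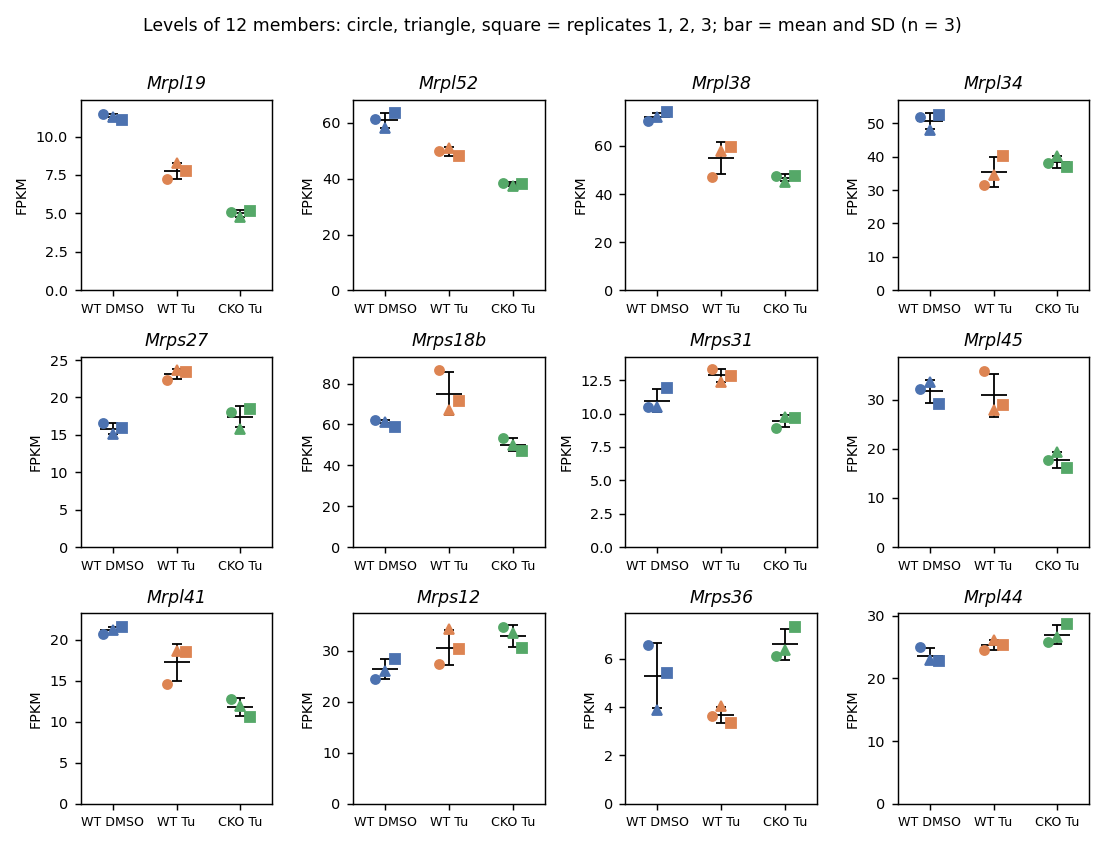
FPKM of 12 members in each library (symbols, replicates 1 to 3) with the mean and SD of each group (bars). Mrpl19 and Mrpl52 step down from WT DMSO to WT Tu to CKO Tu, Mrps27, Mrps18b and Mrps31 are highest in WT Tu, and Mrpl45 is low in CKO Tu alone.

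The same 100 bases are shown for Mrpl45 and Mrpl41, the large-subunit genes lowest in CKO Tu relative to WT DMSO after Mrpl19. They are also shown for Mrps36, which was higher in CKO Tu than in WT Tu but did not pass against WT DMSO. Capitals mark TGCGCA, the core letters bound by the transcription factor NRF1, a known activator of nuclear genes for mitochondria. The window of Mrpl45 is chr11:97315616-97315715 on the plus strand, that of Mrpl41 chr2:24975099-24975198 and that of Mrps36 chr13:100744660-100744759, both on the minus strand.
Mrpl45: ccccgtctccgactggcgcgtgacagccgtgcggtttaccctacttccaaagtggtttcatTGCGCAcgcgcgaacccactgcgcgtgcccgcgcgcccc
Mrpl41: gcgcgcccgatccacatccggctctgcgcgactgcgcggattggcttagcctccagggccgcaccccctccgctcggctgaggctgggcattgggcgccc
Mrps36: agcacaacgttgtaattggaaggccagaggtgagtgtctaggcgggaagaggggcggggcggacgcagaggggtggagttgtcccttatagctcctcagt
The core began 39 bases before the start of Mrpl45, which had another match 121 bases before it, outside the bases shown. None of the letters searched for occurred in the windows of Mrpl41 and Mrps36.

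Over the 250 bases before the start, both strands were searched in the 69 members found in the RefSeq promoter table and in 8225 genes tested. The NRF1 core TGCGCA was in 18 members (26.1%, against 12.8% of the genes tested), and the 10-letter NRF1 consensus, which can share bases with it, in 3 (4.35%, against 1.84%). The ETS letters CCGGAAG were in 17 (24.6% against 15.2%) and the YY1 letters AAGATGG in 6 (8.7% against 4.66%). The E-box CACGTG, bound by MYC among others, was in 5 (7.25% against 9.12%). The composite TGATGNAA, bound by the stress factors ATF4 and CHOP, was in 0 of the 69 (2.07% of the genes tested). A match is a description of the letters and shows no binding.

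In CKO Tu against WT DMSO, which joins drug, genotype and the sex-linked difference, 37 of the 77 genes were lower, 3 were higher and 37 did not pass (limma). Over all genes 49.5% were called, 24.2% lower and 25.3% higher, against 48.1% lower and 3.9% higher among the members. The median log2 change was -0.22 beside 0.00 over all genes, and 61 of 77 changes were below 0. Of the 50 large-subunit genes tested, 27 were lower and 1 was higher, and of the 26 small-subunit genes 10 were lower and 2 were higher. With 1 library left out, the large-subunit counts were 20 to 29 lower and 0 to 4 higher, and those of the small subunit 6 (without CKO Tu replicate 2) to 15 (without WT Tu replicate 1) lower and 1 to 2 higher. Within the large subunit, 16 of 30 proteins shared with bacterial ribosomes and 11 of 20 specific to mitochondria were lower. Endothelial markers summed to 12 to 12.8 FPKM for WT DMSO and 4.23 to 4.59 for CKO Tu, and cholangiocyte markers to 24.5 to 27.6 and 35.6 to 39.5. Lymphocyte and neutrophil markers summed to 1.44 to 1.78 and 3.02 to 4.58 FPKM. Hepatocyte markers summed to 16219 to 17942 and 14040 to 14962 FPKM, mostly from Alb, while 4 of 10 were higher and 2 lower in CKO Tu (limma). The part of these cell types in the counts was not tested.

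Mrpl19 was the single member whose level changed by at least 1 on the log2 scale, at -1.03 ± 0.06 (SE; limma adjusted p = 2.5e-06), and its CKO Tu mean was 44.3% of the WT DMSO mean. Mrpl45 and Mrpl41 followed at -0.81 ± 0.11 and -0.79 ± 0.10 (SE; limma adjusted p = 0.00027 and 0.00019). Mrpl52, at 38.6, 37.2 and 38.2 FPKM for CKO Tu, was below all other libraries, at -0.67 ± 0.05 (SE; limma adjusted p = 1.1e-05). Mrps2, a small-subunit protein shared with bacteria, had 13.4, 14.4 and 14.9 FPKM for WT DMSO, 10.4, 11.2 and 12.2 for WT Tu and 8.36, 8.69 and 9.01 for CKO Tu. The 3 groups were separate, and the change between the outer groups was -0.65 ± 0.07 (SE; limma adjusted p = 8.2e-05). Mrpl12, Mrpl33 and Mrpl38 were lower, at -0.65 ± 0.11, -0.64 ± 0.10 and -0.62 ± 0.08 (SE; limma adjusted p = 0.0012, 0.00079 and 0.00031). Of these genes, Mrpl19, Mrpl52 and Mrps2, with Mrpl16, named after its values were seen, were the 4 members called lower in all 3 comparisons, which share groups with each other. Among these calls, that of Mrpl52 in WT Tu was lost with the GC trend removed, and that of Mrpl16 in CKO Tu against WT Tu with voom on recovered fragments.

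The 3 genes that were higher were Mrps12, Mrpl44 and Mrps14. Mrps12, a protein of the decoding centre, had 24.5, 26.1 and 28.4 FPKM for WT DMSO and 34.6, 33.5 and 30.4 for CKO Tu, without overlap, at 0.31 ± 0.09 (SE; limma adjusted p = 0.021). Mrpl44, which has a fold like that of ribonuclease III, had 25.1, 22.9 and 22.7 against 25.8, 26.6 and 28.6 FPKM, at 0.19 ± 0.06 (SE; limma adjusted p = 0.03). Mrps14, a small-subunit protein shared with bacteria, rose from 5.74, 5.61 and 5.35 to 6.11, 7.11 and 7.27 FPKM, at 0.25 ± 0.07 (SE; limma adjusted p = 0.019). These 3 calls were lost with upper-quartile and with total-fragment scaling, where 0 members were higher, and each of the 3 was lost without CKO Tu replicate 2. Some libraries decided the count, which was 1 without WT DMSO replicate 2 or 3 or without CKO Tu replicate 2 or 3, 6 without WT Tu replicate 1 and 5 without WT Tu replicate 3.

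Among the paralogues of the S18 family, each of which occupies a different place in the ribosome, Mrps18b and Mrps18a were lower in CKO Tu than in WT DMSO, at -0.28 ± 0.09 and -0.21 ± 0.07 (SE; limma adjusted p = 0.035 and 0.037). The call of Mrps18a was lost without any 1 of the 6 libraries of these groups and that of Mrps18b without any of them but CKO Tu replicate 1, and both were lost without a filter on low values and with the GC trend removed. Mrps18c had 6.59, 5.64 and 4.24 FPKM for WT DMSO and 5.93, 5.64 and 6.34 for CKO Tu (0.12 ± 0.19, SE; limma adjusted p = 0.63). Mrps6, the partner of Mrps18c in the platform, was lower at -0.29 ± 0.06 (SE; limma adjusted p = 0.0051). Mrps30 was level across the groups, at 6.46 to 6.61 FPKM for WT DMSO, 6.07 to 8.18 for WT Tu and 6.19 to 6.61 for CKO Tu, and passed in no comparison.

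Mrpl46 and Mrps11, a protein of each subunit, are divergent neighbours on chromosome 7, with RefSeq start sites 42 bases apart. Mrps11 fell in WT Tu, a call kept in 13 of 20 alternatives, and did not pass between CKO Tu and WT Tu (limma adjusted p = 0.48). Mrpl46, chosen after its values were seen, had 23.3, 25.9 and 24.4 FPKM for WT DMSO, 24.4, 24.9 and 26.7 for WT Tu and 19.0, 19.7 and 19.5 for CKO Tu. It did not pass in WT Tu (limma adjusted p = 0.59) and was lower in CKO Tu than in WT Tu (-0.37 ± 0.06, SE; limma adjusted p = 0.0013). Both genes were lower in CKO Tu than in WT DMSO. Mrps11 differed by -0.45 ± 0.10 and Mrpl46 by -0.32 ± 0.06 (SE; limma adjusted p = 0.0056 and 0.0015). Their exons overlap by 173 bases, so some fragments of this pair could belong to either gene.

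**Figure D4:**
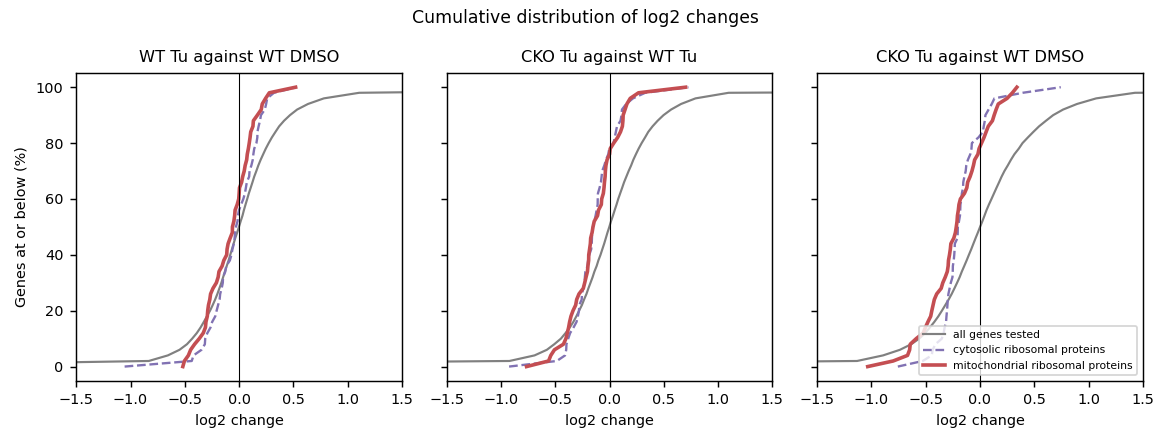
Cumulative share of genes (vertical axis, percent) at or below each log2 change (horizontal axis) for the mitochondrial ribosomal proteins (red), the cytosolic ribosomal proteins (dashed) and all genes tested (grey), in the 3 comparisons. The member curve lies left of 0 at its middle in each panel, at medians of -0.06, -0.15 and -0.22, and both ribosomal sets span a narrower range than all genes.

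For the counts of the lists below, 17.7% of all genes were called higher and 15.9% lower in WT Tu (limma). These shares were 18.7% and 19.6% in CKO Tu against WT Tu, and 25.3% and 24.2% in CKO Tu against WT DMSO. The cytosolic ribosomal proteins, which build the ribosomes of the cytoplasm, were set beside the members. Of 77 tested, 3 fell and 3 rose in WT Tu (median -0.03), 24 were lower and 0 higher in CKO Tu against WT Tu (median -0.15), and 28 were lower and 3 higher in CKO Tu against WT DMSO (median -0.20). Without WT Tu replicate 1, 9 rose and 6 fell in WT Tu, 42 were lower in CKO Tu against WT Tu and 47 were lower in CKO Tu against WT DMSO. In WT Tu, 1 rose and 0 fell without WT DMSO replicate 3, and against WT DMSO 18 were lower in CKO Tu without WT DMSO replicate 3 and 17 without CKO Tu replicate 1. The 3 higher genes became 1 without WT DMSO replicate 1 or CKO Tu replicate 3. Proteins of the mitochondrial ribosome under other names numbered 5, with 1, 0 and 3 lower and 0 higher in the same 3 comparisons. The 3 became 1 without WT DMSO replicate 1 or CKO Tu replicate 1 or 3, and between the Tu groups 1 was lower without WT Tu replicate 1 or 2. Dap3, a GTP-binding protein of the small subunit, fell in WT Tu by 0.23 ± 0.07 on the log2 scale (SE; limma adjusted p = 0.033), a call lost without any 1 WT DMSO library, WT Tu replicate 1 or 2 or CKO Tu replicate 3.

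The RNAs that these proteins assemble with or read are encoded by the mitochondrial genome. The small rRNA mt-Rnr1 had 819, 1378 and 1373 FPKM for WT DMSO, 1761, 1735 and 1835 for WT Tu and 1292, 1313 and 1138 for CKO Tu. It rose in WT Tu by 0.62 ± 0.18 on the log2 scale (SE; limma adjusted p = 0.028). The large rRNA mt-Rnr2 rose by 0.83 ± 0.21 (SE; limma adjusted p = 0.017), and WT DMSO replicate 1 was low in both. The library selection is not given in the sources used here, and any removal of rRNA by it was not tested. These values may therefore not follow the rRNA levels of the cells. The call of mt-Rnr1 was lost without any 1 of the WT Tu libraries and with total-fragment scaling, and both rRNA calls were lost with quantile normalization, without a filter and with the GC trend removed. Of the 13 mitochondrial mRNAs, 2 rose and 0 fell in WT Tu (median 0.33), 7 were lower and 0 higher in CKO Tu against WT Tu (median -0.46), and 1 was lower in CKO Tu against WT DMSO (median -0.10). WT Tu replicate 1 stood apart, for instance in mt-Nd5, a subunit of complex I chosen after its values were seen, at 4526 FPKM, where replicates 2 and 3 of that group had 3003 and 3350. Without that library 1 mRNA rose in WT Tu, at a median of 0.22. The count was 5 without WT Tu replicate 2 and 0 without WT DMSO replicate 1 or 3, WT Tu replicate 3 or any CKO Tu library. Between the Tu groups 3 were lower without CKO Tu replicate 1, and against WT DMSO 3 were lower without WT DMSO replicate 1, 2 without WT Tu replicate 1 or CKO Tu replicate 2, and 1 was higher without CKO Tu replicate 3. In WT Tu the median of the mitochondrial mRNAs was thus above 0 and that of the ribosomal proteins below 0, a difference that was not tested.

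Assembly factors and rRNA-modifying enzymes prepare both subunits, and 27 were tested. In WT Tu 6 fell and 2 rose, in CKO Tu against WT Tu 10 were lower and 2 higher, and in CKO Tu against WT DMSO 16 were lower and 5 higher (median -0.29). The 6 that fell in WT Tu became 3 without WT DMSO replicate 1 or 2 or WT Tu replicate 3, and 1 without WT DMSO replicate 3. Between the Tu groups the lower count was 6 without WT Tu replicate 3 or CKO Tu replicate 1 or 3, where 0 to 1 were higher. Against WT DMSO the higher count was 2 without CKO Tu replicate 1 and 3 without WT DMSO replicate 1 or 2, WT Tu replicate 2 or CKO Tu replicate 2 or 3. Mrm3, which methylates the large rRNA, had 13.9, 13.0 and 12.9 FPKM for WT DMSO, 6.86, 9.13 and 11.6 for WT Tu and 6.30, 7.40 and 6.95 for CKO Tu. It was lower in CKO Tu than in WT DMSO, at -0.86 ± 0.15 (SE; limma adjusted p = 0.0013). Rbfa, a factor of small-subunit assembly, fell in WT Tu from 25.3, 24.3 and 23.3 to 17.5, 18.0 and 18.1 FPKM (-0.42 ± 0.06, SE; limma adjusted p = 0.0012). Rpusd4, a pseudouridine synthase of the large rRNA, stood at 18.0, 20.98 and 19.3 FPKM for WT Tu and 12.7, 13.0 and 12.9 for CKO Tu (-0.56 ± 0.07, SE; limma adjusted p = 0.0006).

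Of 15 translation factors tested, 1 fell and 1 rose in WT Tu, whereas 8 were lower in CKO Tu than in WT Tu and 9 lower than in WT DMSO, with 0 higher. Tufm, the elongation factor that delivers tRNAs, fell in WT Tu by 0.25 ± 0.08 on the log2 scale (SE; limma adjusted p = 0.041), a call lost without any 1 library of WT DMSO or CKO Tu and with a replicate block. The rising count was 0 without any 1 WT DMSO library, WT Tu replicate 1 or 2 or CKO Tu replicate 1 or 2. Tsfm, its exchange factor, had 10.4, 11.97 and 12.4 FPKM for WT Tu and 7.59, 7.53 and 8.13 for CKO Tu (-0.52 ± 0.08, SE; limma adjusted p = 0.0009). Gfm1, the factor that moves the ribosome along, had 14.4, 15.5 and 14.4 against 9.94, 11.0 and 9.96 FPKM (-0.48 ± 0.06, SE; limma adjusted p = 0.00034). Neither pair of groups overlapped.

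Mitochondrial tRNA synthetases went both ways, at shares that did not exceed those of all genes. Of 17, 2 rose and 2 fell in WT Tu (11.8% each). In CKO Tu against WT Tu 3 were higher and 1 lower (17.6% and 5.88%). In CKO Tu against WT DMSO 4 were higher and 4 lower (23.5% each). Aars2, the alanine enzyme, fell in WT Tu by 0.67 ± 0.10 on the log2 scale (SE; limma adjusted p = 0.0013), and Cars2, the cysteine enzyme, rose by 0.49 ± 0.09 (SE; limma adjusted p = 0.0038). Of 13 genes of mitochondrial transcription and DNA maintenance, 2 rose and 1 fell in WT Tu (15.4% and 7.69%). In CKO Tu against WT Tu 0 were higher and 2 lower (15.4%). These shares were also below those of all genes. Polrmt, the RNA polymerase, fell in WT Tu by 0.21 ± 0.05 on the log2 scale (SE; limma adjusted p = 0.015), a call lost with the GC trend removed. In that list 1 rose in WT Tu without WT DMSO replicate 2 or 3 or any 1 CKO Tu library, and between the Tu groups 1 was lower without any 1 WT DMSO library or CKO Tu replicate 1 or 2, and 1 was higher without WT Tu replicate 1.

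Regulators of mitochondrial biogenesis moved in both directions. Of 8 tested, 3 rose and 1 fell in WT Tu, 3 were higher and 2 lower in CKO Tu against WT Tu, and 4 were higher and 2 lower in CKO Tu against WT DMSO. The falling count in WT Tu was 0 without WT DMSO replicate 2 or 3 or WT Tu replicate 2, and 2 without WT Tu replicate 3. Gabpa, the DNA-binding part of GABP, had 18.8, 17.9 and 17.9 FPKM for WT DMSO, 24.6, 23.0 and 22.3 for WT Tu and 29.6, 28.3 and 28.1 for CKO Tu. It rose in WT Tu by 0.34 ± 0.05 (SE; limma adjusted p = 0.0017), and the 3 groups did not overlap. Nrf1 was higher in CKO Tu than in WT Tu by 0.36 ± 0.07 (SE; limma adjusted p = 0.0044). Myc, an activator of ribosome genes, stood at 173, 161 and 172 FPKM for WT Tu and 97.5, 97.7 and 99.2 for CKO Tu. This was a difference of -0.78 ± 0.05 (SE; limma adjusted p = 7e-06), and WT DMSO was at 190, 188 and 191 FPKM.

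Of 11 genes of the mitochondrial unfolded protein response, 2 rose and 2 fell in WT Tu (18.2% each, near the shares of all genes). In CKO Tu against WT Tu 0 were higher and 5 lower (45.5%). In CKO Tu against WT DMSO 0 were higher and 6 lower (54.5%). With 1 library left out, the WT Tu counts were 1 to 3 risen and 0 to 2 fallen, with 0 fallen and 1 risen without WT DMSO replicate 1, and 1 of each without WT DMSO replicate 2 or 3 or CKO Tu replicate 2. The falling count was also 1 without WT Tu replicate 1 or 2 or CKO Tu replicate 1 or 3. Lonp1, a protease of the matrix, had 132, 143 and 139 FPKM for WT Tu and 89.3, 94.0 and 92.2 for CKO Tu (-0.58 ± 0.05, SE; limma adjusted p = 8.1e-05). Hspd1 and Hspe1, the matrix chaperonin and its partner, were lower, at -0.51 ± 0.06 and -0.67 ± 0.11 (SE; limma adjusted p = 0.00028 and 0.0014). Their CKO Tu levels lay below those of all 6 WT libraries.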

How the data were processed

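The deposited table gave FPKM, which the authors computed for 54532 genes in 9 libraries. Alignment used HISAT2 2.2.1 and the mm10 build, and gene assignment featureCounts 1.5.0-p3, per the submitters' processing notes. For the annotation release, strand setting, library selection and FPKM formula, nothing is given in the sources used here. FPKM times gene length gave whole fragments in 100% of values (tolerance 0.001 fragments), which showed library sizes of 0.948 to 1.07 times the fragment totals. The values had therefore been scaled by a factor per library, and other scalings were tried.

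The 11858 genes that reached an FPKM of 1 in 3 or more libraries were fitted as log2(FPKM + 1) with limma 3.58.1 in R 4.3.3, with 1 mean for each of the 3 groups over all 9 libraries and a trend of the spread on intensity. Tests were two-sided, and p-values were adjusted by Benjamini-Hochberg over all genes tested in each comparison, with a threshold of 0.05. The pseudocount of 1 understates changes of low genes. The fit was tested on simulated data. Members were matched by symbol, with GENCODE M21 for exons (73 of 78 had the same position) and RefSeq for promoters (69 of 78). Motifs were searched on both strands. The labels name no batch. Same-numbered libraries correlated at -0.097 to 0.021 in their deviations from group means, and other pairs at -0.061 to 0.104. The replicate numbers thus showed no shared effect, which cannot tell whether the libraries were paired.

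Named were the 8 largest called changes in each direction and comparison, 14 landmark members, the 3 highest and 3 lowest members, and up to 3 called genes per list and comparison, of which a part is printed. Genes chosen after their values were seen are marked so. The members and lists were chosen with earlier results of these data known. The lists were mitoribosomal proteins with other names, assembly factors, translation factors, tRNA synthetases, transcription and DNA maintenance, biogenesis regulators and the mitochondrial unfolded protein response.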

Additional observations from a re-analysis of the deposited data

How the results depend on the processing

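Over 20 alternatives per comparison, no member's call turned to the other direction. The alternatives were another pseudocount (0.1), no filter, a filter at FPKM of 5, upper-quartile, total-fragment and quantile scaling, voom on recovered fragments, no intensity trend, a replicate block, a fit of only the groups compared, each library left out, and removal of a GC trend (span 0.3), which was chosen after seeing the data. In WT Tu against WT DMSO, the 3 rising members became 1 without the filter, with upper-quartile, total-fragment or quantile scaling, with voom and with only the 2 groups, and 1 to 5 with a library left out. The 14 falling members became 27 with total-fragment scaling and 29 with voom, where the median of all genes lay at -0.11 and -0.14 and that of the members at -0.18 and -0.19 on the log2 scale. In CKO Tu against WT Tu, the 2 higher members became 1 with only the 2 groups and 1 to 5 with a library left out, and the 24 lower members stayed between 19 and 35 with a library left out. In CKO Tu against WT DMSO, the 3 higher members became 0 with upper-quartile or total-fragment scaling or voom, 6 with only the 2 groups, 5 with the GC trend removed, and 1 to 6 with a library left out, where the 37 lower members stayed between 27 and 44. The causes of these moves were not tested, apart from the shift of all genes given for total-fragment scaling and voom. With a replicate block, 2 members rose and 14 fell in WT Tu, 2 were higher and 23 lower in CKO Tu against WT Tu, and 2 were higher and 35 lower in CKO Tu against WT DMSO, in each case within 1.5 times the count without the block. Calls that held in all 20 alternatives numbered 8 of 17, 19 of 26 and 24 of 40 in the 3 comparisons. Changes of a size near the standard errors of 0.05 to 0.24 were not detectable with 3 libraries a group.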

Other observations

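Across the 3 comparisons, which share groups, the members fell into a few patterns of calls. Mrpl38, Mrpl34, Mrpl14, Mrpl12, Mrpl54, Mrps24, Mrpl49, Mrpl15, Mrps11 and Mrpl33 were called lower in WT Tu and in CKO Tu, each against WT DMSO, and not between the 2 Tu groups. Another 14, among them Mrpl45, Mrpl41, Mrpl10, Mrpl11, Mrpl58 and Mrps22, were called lower in CKO Tu against each WT group and not in WT Tu. A further 7, among them Mrps6 and Mrps18a, were called lower in CKO Tu against WT DMSO alone, and 32, with the untested Mrpl53 among them, were called in no comparison. Genes outside the naming rule were listed here after their values were seen.

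The members had a median GC content of 51.2%, beside 50.3% over all genes tested. Across the 77 members, the Spearman correlation of GC content with the log2 change was -0.384 for WT Tu against WT DMSO, 0.165 for CKO Tu against WT Tu and -0.227 for CKO Tu against WT DMSO. Over all genes tested it was -0.344, 0.096 and -0.172. Genes are not independent replicates, and all values come from the same 9 libraries. With the GC trend removed, Mrpl52, Mrpl54, Mrps24, Mrps31 and Mrps11 lost their calls in WT Tu, Mrpl42 in CKO Tu against WT Tu, and Mrps18b, Mrpl54, Mrps18a and Mrps14 in CKO Tu against WT DMSO, while 4, 3 and 6 other members gained one.

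Mrps34, a mitochondria-specific protein of the small subunit named after its values were seen, had the widest spread of the members within a group, with a coefficient of variation of 42.8% for WT Tu. Its libraries were at 10.4, 9.67 and 9.18 FPKM for WT DMSO, 3.88, 7.73 and 9.98 for WT Tu and 6.93, 7.56 and 7.79 for CKO Tu. WT Tu replicate 1 was lowest, and the gene was called in no comparison. Of its exon bases, 63.4% are shared with Mapk8ip3 on the other strand and 37% with Nme3 on the same strand.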
